A study of Mus musculus with 7 samples.

Results

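The reactive astrocyte genes described here were 10 genes listed by symbol: Gfap, Vim, Nes, Cd44, Osmr, Lcn2, S1pr3, Aspg, Timp1 and Steap4. They were chosen with earlier results of these data known. All 10 were found among the 20859 genes of the count table. Gene expression was measured in bulk cortex and hippocampus of mice of a familial Alzheimer's disease genotype (FAD) and of wild-type mice (WT), in a study that targeted CD38, a surface enzyme that consumes NAD. Each mouse had 1 of 3 injections, and nearly every mouse gave a cortex and a hippocampus. In cortex there were 9 WT mice given PBS (WT PBS), 7 FAD mice given IgG (FAD IgG) and 7 FAD mice of the CD38 injection (FAD CD38), and in hippocampus 8, 7 and 7. The effect of genotype cannot be told apart from that of the injected antibody, since no FAD mouse had PBS and no WT mouse an antibody. The labels give neither the transgenes and their promoters nor the age of the mice.

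Astrocytes answer injury, infection and amyloid deposits with a change of state called reactivity, in which they enlarge, build up intermediate filaments and secrete proteins that act on neighbouring cells and matrix. Cytokines of the interleukin-6 family, which signal through gp130 and STAT3, and inflammatory signals through NF-kB are well known inducers of this state. Around plaques in Alzheimer's disease models, rising GFAP is the classical sign of it. The 10 genes cover the filament proteins GFAP, vimentin and nestin, 3 surface receptors (CD44 for hyaluronan, OSMR for oncostatin M and S1PR3 for sphingosine 1-phosphate), the secreted proteins lipocalin 2 and TIMP1, the asparaginase ASPG and the metal reductase STEAP4.

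The bases upstream of the starts are shown for 4 of the members. Whether members share a regulator was not tested. Gfap and Vim are filament genes and Timp1 a gene of a secreted protein that rose in both regions of FAD mice, and Steap4 was barely counted but held motif matches. Each sequence is the 250 bases before the RefSeq start (build GRCm38.p6), 5′ to 3′, and capitals mark matches to the motifs searched.
Gfap, chr11:102897201-102897450, minus strand: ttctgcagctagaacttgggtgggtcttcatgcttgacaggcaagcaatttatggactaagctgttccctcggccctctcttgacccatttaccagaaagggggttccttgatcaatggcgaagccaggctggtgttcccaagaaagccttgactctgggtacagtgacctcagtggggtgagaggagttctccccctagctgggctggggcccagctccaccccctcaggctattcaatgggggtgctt
Vim, chr2:13574061-13574310, plus strand: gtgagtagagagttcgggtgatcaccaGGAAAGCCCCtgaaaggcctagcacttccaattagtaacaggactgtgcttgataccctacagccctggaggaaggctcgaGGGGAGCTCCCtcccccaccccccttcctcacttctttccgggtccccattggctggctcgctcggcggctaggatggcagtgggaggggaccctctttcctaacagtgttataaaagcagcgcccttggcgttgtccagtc
Timp1, chrX:20869916-20870165, plus strand: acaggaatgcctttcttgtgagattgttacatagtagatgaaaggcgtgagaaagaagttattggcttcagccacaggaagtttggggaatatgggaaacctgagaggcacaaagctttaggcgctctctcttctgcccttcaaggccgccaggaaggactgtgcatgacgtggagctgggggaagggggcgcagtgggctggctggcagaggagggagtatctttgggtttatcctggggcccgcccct
Steap4, chr5:7960222-7960471, plus strand: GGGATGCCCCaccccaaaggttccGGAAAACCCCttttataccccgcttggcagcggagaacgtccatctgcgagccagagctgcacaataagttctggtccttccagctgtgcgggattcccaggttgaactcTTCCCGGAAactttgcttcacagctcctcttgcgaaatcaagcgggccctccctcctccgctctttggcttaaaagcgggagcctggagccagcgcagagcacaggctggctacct
The motifs were the STAT site TTCCNGGAA, its looser form TTCNNNGAA, the AP-1 site TGANTCA and the NF-kB site, on both strands. All 10 genes had such a window. Steap4 held the STAT site TTCCCGGAA, 116 to 108 bases before the start, which also matches the looser form, and 2 NF-kB matches. Vim held 3 NF-kB matches, of which 2 overlap. The other 8 windows held no match. Among 32851 RefSeq windows of the same length 0.913% held the STAT site, 7.02% its looser form, 6.75% the AP-1 site and 7.25% an NF-kB site. A match is a string of letters and no evidence of binding, and a window without one says nothing about a factor acting elsewhere.

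Total counts ran from 1270918 to 5101368 over the 47 wells. A value of 1 CPM (counts scaled to a fixed total per well) therefore stood for 1 to 5 counts, and levels of a few CPM carry large counting error. The assay tags 3′ ends. CPM is used here to compare a gene between samples, not genes with each other. All 18 genes of resting astrocytes looked up in this bulk tissue were counted in every group. So were the microglia, oligodendrocyte and neuron markers in the table, so this does not tell which cells the members' transcripts came from. Choroid plexus and ependymal markers summed to over 1000 CPM in 3 wells, at 15587.5 in hippocampus of FAD CD38 replicate 4, 8827 in hippocampus of FAD IgG replicate 4 and 1645 in cortex of FAD CD38 replicate 7. In the other wells they summed to 6.86 to 149 CPM in cortex and 28.4 to 299 in hippocampus. Leaving these 3 wells out, a choice made after seeing the data, changed no count of members called between groups.

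The filament genes Gfap and Vim rose in FAD mice of both injections and in both regions, while Nes passed the threshold in cortex. In cortex, Gfap, the defining filament of reactive astrocytes, lay at 20.1, 26.8 and 36.1 CPM in WT PBS (lowest, median and highest), at 196, 240 and 408 in FAD IgG and at 186, 231 and 332 in FAD CD38. No FAD value came near the WT range. The fitted change was 10.5-fold in FAD IgG (3.39 ± 0.18 on the log2 scale, estimate ± SE, adjusted p = 7.15e-12, edgeR's quasi-likelihood test with Benjamini-Hochberg adjustment over all genes tested). In FAD CD38 it was 8.85-fold (3.15 ± 0.17, adjusted p = 8.58e-12, same test). Within each of the 6 library pools that held both groups, the difference of FAD IgG from WT PBS in cortex lay between 3.01 and 4.20.

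In hippocampus, where the WT level of Gfap was higher, WT PBS mice had 58.5, 65.5 and 77.9 CPM, FAD IgG mice 375, 442 and 627, and FAD CD38 mice 202, 422 and 468. The groups again did not overlap. The changes were 6.68-fold (2.74 ± 0.14, adjusted p = 1.91e-10) and 5.78-fold (2.53 ± 0.14, adjusted p = 1.64e-10). The lowest FAD CD38 value of Gfap, 202 CPM, came from replicate 4, the well with the most choroid plexus transcripts. Of the 12728 hippocampal genes tested, Gfap ranked 3 by p in FAD IgG, but only 67 by fold.

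Vim encodes vimentin, the filament partner of GFAP, which endothelial cells and microglia also make. In cortex it stood at 15.9, 23.9 and 31.6 CPM in WT PBS, 66.4, 102 and 131 in FAD IgG and 73.4, 82.3 and 144 in FAD CD38. Hippocampal values were 23.9, 28.7 and 42.4, then 107, 147 and 228, then 89.6, 129 and 182. Every FAD mouse was above every WT mouse in each region. Vim rose 4.48-fold in cortex (2.16 ± 0.16, adjusted p = 9.00e-10) and 5.28-fold in hippocampus (2.40 ± 0.20, adjusted p = 4.93e-08) of FAD IgG mice. In FAD CD38 mice the folds were 3.95 and 4.15.

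Nes encodes nestin, a filament of neural stem cells and of strongly reactive astrocytes. Cortical levels overlapped between groups, at 1.26, 2.63 and 5.72 CPM in WT PBS, 3.28, 5.71 and 9.44 in FAD IgG and 3.23, 5.08 and 11.4 in FAD CD38. The cortical rise was 2.11-fold in FAD IgG (1.08 ± 0.26, adjusted p = 0.0138) and 1.89-fold in FAD CD38 (0.92 ± 0.25, adjusted p = 0.0297). This is the least stable call among the members: with the pool left out of the model the adjusted p was 0.202 and 0.159. Leaving out pool 6 or pool 10 moved the FAD IgG call past the threshold (adjusted p = 0.0865 and 0.0543), and leaving out pool 5, 6, 7, 9 or 11 did so for FAD CD38 (0.0578 to 0.112). In hippocampus the medians were 2.89, 3.45 and 3.47 CPM, and the fitted differences of 0.15 ± 0.36 and -0.04 ± 0.36 were not called.

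**Figure D1:**
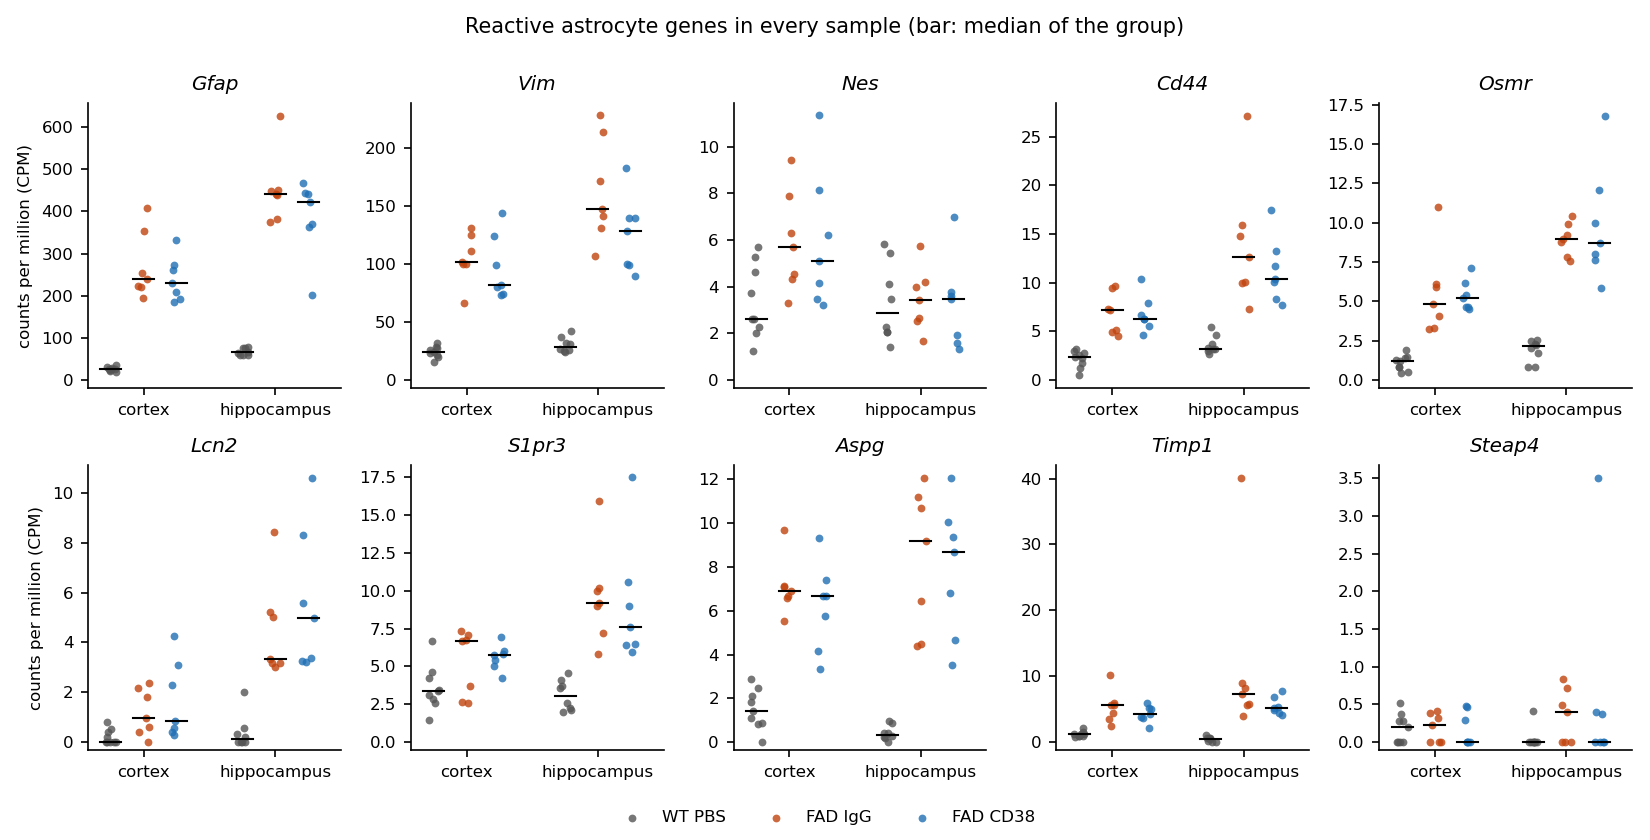
Level of each of the 10 genes in every sample, in CPM (vertical axis, linear), by region and group; each point is 1 sample and the bar is the group's median. Gfap and Vim of FAD mice lie wholly above those of WT PBS mice, Nes overlaps, and Steap4 stays below 1 CPM except at 3.50 CPM in 1 hippocampus of FAD CD38.

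Among the receptors, Cd44 and Osmr rose in both regions and S1pr3 passed the threshold in hippocampus. CD44, the hyaluronan receptor, is found on astrocyte processes, and on immune and endothelial cells as well. Cd44 stood in cortex at 0.526, 2.41 and 3.14 CPM in WT PBS, 4.51, 7.23 and 9.71 in FAD IgG and 4.62, 6.26 and 10.4 in FAD CD38. In hippocampus these were 2.70, 3.22 and 5.47, then 7.25, 12.7 and 27.1, then 7.71, 10.4 and 17.5. The FAD and WT ranges did not meet in either region. Changes of Cd44 in FAD IgG were 3.26-fold in cortex (1.71 ± 0.23, adjusted p = 1.72e-05) and 3.84-fold in hippocampus (1.94 ± 0.28, adjusted p = 6.69e-05), and in FAD CD38 3.14-fold and 3.19-fold.

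Osmr encodes the oncostatin M receptor, which pairs with gp130 to signal through STAT3. Its values in cortex were 0.419, 1.21 and 1.92 CPM in WT PBS, 3.26, 4.85 and 11.0 in FAD IgG and 4.54, 5.19 and 7.09 in FAD CD38. In hippocampus they were 0.804, 2.15 and 2.52, then 7.53, 8.98 and 10.4, then 5.86, 8.71 and 16.8. The change was much alike in size in the 4 comparisons with WT PBS. It was 4.96-fold (2.31 ± 0.31, adjusted p = 1.47e-05) and 4.91-fold in cortex of FAD IgG and FAD CD38 and 4.69-fold (2.23 ± 0.26, adjusted p = 7.10e-06) and 5.13-fold in hippocampus.

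S1pr3, a receptor of sphingosine 1-phosphate that couples to several G proteins, had overlapping values in cortex, at 1.44, 3.35 and 6.70 CPM in WT PBS, 2.59, 6.66 and 7.34 in FAD IgG and 4.27, 5.78 and 6.92 in FAD CD38. Neither cortical difference was called (0.39 ± 0.25, adjusted p = 0.4998, and 0.56 ± 0.24, adjusted p = 0.195). In hippocampus the 3 groups stood at 1.96, 3.07 and 4.55, at 5.83, 9.20 and 15.9 and at 5.97, 7.63 and 17.5 CPM, with no overlap between FAD and WT. There S1pr3 rose 3.17-fold in FAD IgG (1.67 ± 0.30, adjusted p = 0.00112) and 2.94-fold in FAD CD38 (1.56 ± 0.30, adjusted p = 0.00204).

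Of the secreted proteins and enzymes, Timp1 and Aspg rose in both regions and Lcn2 in hippocampus, while Steap4 was too low to measure. Timp1 encodes an inhibitor of matrix metalloproteinases. In cortex it lay at 0.789, 1.21 and 2.18 CPM in WT PBS, 2.46, 5.58 and 10.2 in FAD IgG and 2.09, 4.33 and 5.88 in FAD CD38. Only FAD IgG cleared the whole WT range there. In hippocampus 12 counts in all were found over the 8 WT PBS wells, with 2 wells at 0, against 231 and 94 counts in the 7 wells each of FAD IgG and FAD CD38. Those levels were 0, 0.492 and 1.03 CPM, then 3.95, 7.25 and 40.1, then 4.16, 5.21 and 7.70.

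Timp1 rose 4.56-fold in cortex (2.19 ± 0.28, adjusted p = 6.21e-06) and 21.3-fold in hippocampus (4.41 ± 0.53, adjusted p = 1.05e-05) of FAD IgG mice. The hippocampal estimate leans on FAD IgG replicate 5, whose 40.1 CPM stood far above the other 6 mice (3.95 to 9.04). Without that well, left out after seeing the data, the log2 change was 3.71 (adjusted p = 8.30e-06). In FAD CD38 mice Timp1 rose 3.50-fold in cortex and 12.8-fold in hippocampus (3.68 ± 0.56, adjusted p = 1.73e-04).

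Aspg encodes an asparaginase and is a member of the common reactive astrocyte signature. Its cortical levels were 0, 1.41 and 2.89 CPM in WT PBS, 5.51, 6.90 and 9.68 in FAD IgG and 3.32, 6.65 and 9.34 in FAD CD38. In hippocampus 11 counts were found over all WT PBS wells, giving 0, 0.340 and 0.981 CPM, against 4.37, 9.19 and 12.1 and 3.50, 8.67 and 12.04. FAD and WT mice were apart in each region. Aspg rose 4.80-fold in cortex (2.26 ± 0.31, adjusted p = 1.84e-05) and 19.8-fold in hippocampus (4.31 ± 0.41, adjusted p = 3.38e-07) of FAD IgG mice, and 3.92-fold and 18.2-fold in FAD CD38 mice.

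Lcn2 encodes lipocalin 2, an iron-siderophore carrier secreted by reactive astrocytes and by neutrophils. In cortex it fell below the filter on low counts, with 7 counts over 9 WT PBS wells, 26 over 7 FAD IgG wells and 31 over 7 FAD CD38 wells. Fitted without the filter, the cortical changes of Lcn2 were 2.36 ± 0.68 (adjusted p = 0.0449) and 2.70 ± 0.62 (adjusted p = 0.00613). In hippocampus it stood at 0, 0.105 and 2.02 CPM in WT PBS, 3.02, 3.34 and 8.44 in FAD IgG and 3.21, 4.98 and 10.6 in FAD CD38. The groups did not overlap, and Lcn2 rose 9.62-fold (3.27 ± 0.54, adjusted p = 4.11e-04) and 11.5-fold (3.53 ± 0.52, adjusted p = 1.11e-04). Of 8 neutrophil markers 3 were in the table and none had enough counts to be tested. Their summed level had medians of 0.546, 1.57 and 1.04 CPM in cortex of WT PBS, FAD IgG and FAD CD38, and of 0.277, 0.301 and 0.757 CPM in hippocampus. The part of neutrophils in the level of Lcn2 was not tested.

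Steap4, a metalloreductase of iron and copper induced by cytokines, was not measurable at this depth. It had 3 to 6 counts per group in cortex and 1, 8 and 7 in hippocampus of WT PBS, FAD IgG and FAD CD38, and 5 of the last 7 came from the FAD CD38 replicate 4 well with the most choroid plexus transcripts. It fell below the filter on low counts in both regions. Fitted without the filter, Steap4 differed by 1.92 ± 1.13 in hippocampus of FAD IgG (adjusted p = 0.570) and by 2.61 ± 1.16 in FAD CD38 (adjusted p = 0.303).

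Against WT PBS, 7 members were higher in cortex of FAD IgG mice, where 3.34% of the 12968 genes tested were higher, and 7 in FAD CD38, against 3.3% of genes. In hippocampus 8 were higher in FAD IgG, against 4.48% of the 12728 genes tested, and 8 in FAD CD38, against 4.56%. No member was lower. Since the members were chosen with earlier results of these data known, these counts describe the set and do not test it. Cortex tested 8 members and hippocampus 9. Osmr, Aspg and Timp1 in both regions, and Lcn2 in hippocampus, reached the filter's level in no WT PBS well, so they were tested only because FAD mice had them, and the counts of members tested are no measure of the set. Over those tested, the median log2 change was 2.18 and 1.89 in cortex of FAD IgG and FAD CD38 and 2.40 and 2.36 in hippocampus, beside medians over all genes of 0.01, 0.01, 0.00 and 0.01. Every FAD sample exceeded every WT sample for 6 members in cortex of FAD IgG (1.89% of genes did so) and for 5 in FAD CD38 (1.6%), and for 8 in hippocampus of either FAD group (2.95% and 2.17%). These comparisons share their WT mice and are not independent. In bulk tissue more astrocytes and more RNA per astrocyte cannot be told apart.

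**Figure D2:**
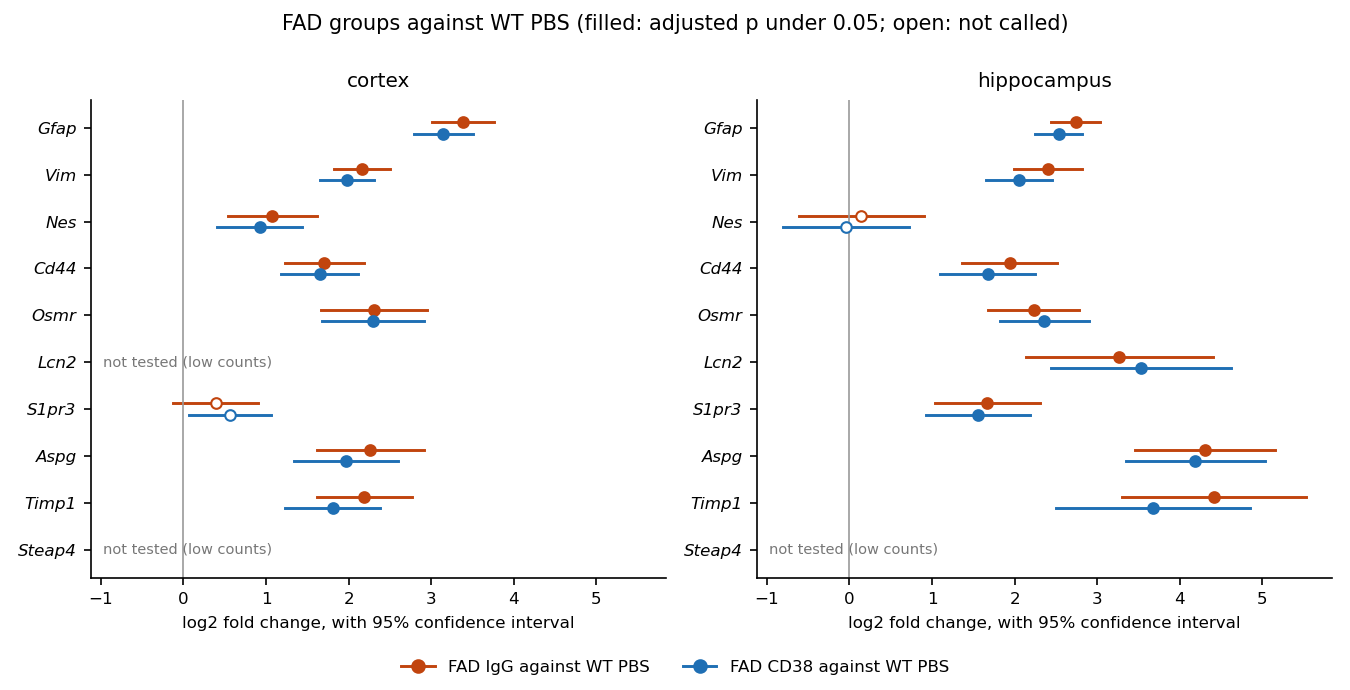
Log2 fold change of each gene against WT PBS (points) with its 95% confidence interval (lines), in cortex and hippocampus, for FAD IgG and FAD CD38; filled points have an adjusted p under 0.05. Gfap has the largest cortical change, at 3.39, while Timp1 and Aspg reach 4.41 and 4.31 in hippocampus; Nes in hippocampus and S1pr3 in cortex are open.

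Markers of another cell type moved in the same comparisons. Of all genes tested, 3.34% in cortex and 4.48% in hippocampus were higher in FAD IgG mice. In FAD IgG mice 10 of 12 microglia markers passed as higher in cortex, and 11 in hippocampus, led by Trem2, a lipid receptor (2.96 ± 0.18 and 3.03 ± 0.21), and Tyrobp, its signalling partner (2.51 ± 0.15 and 2.72 ± 0.14). Their summed level went from 565 to 761 CPM in cortex of WT PBS mice to 1933 to 2950 in FAD IgG and 1742 to 3061 in FAD CD38. In hippocampus it went from 388 to 703 CPM to 2331 to 3124 and 1567 to 3183. No microglia marker was at 0 counts in any group. The part of microglia in the rise of members that they can also express, such as Vim, Cd44 and Timp1, was not tested. The endothelial, mural, fibroblast, progenitor, oligodendrocyte and neuron lists each had 0 genes higher in either region of FAD IgG mice. Of the choroid plexus and ependymal markers, 0 of 3 tested were higher in cortex and 1 of 5 in hippocampus, the ciliated-cell factor gene Foxj1 (0.90 ± 0.22, adjusted p = 0.0177).

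Genes of resting astrocytes changed far less in size. Of 18, all tested, 1 was higher in cortex of FAD IgG mice (median log2 change 0.13) and 7 in hippocampus (median 0.35), and none was lower. Of all genes tested, 3.34% and 4.48% were higher in these comparisons. In FAD CD38 the numbers higher were 1 and 2, with medians of -0.02 and 0.30, beside 3.3% and 4.56% of all genes. In FAD IgG the water channel gene Aqp4 had the largest change in each region (1.18 ± 0.21 and 1.57 ± 0.27). Others that rose in hippocampus of FAD IgG mice were Aldh1l1, a folate enzyme (0.68 ± 0.18), the transcription factor gene Sox9 (0.65 ± 0.15) and the potassium channel gene Kcnj10 (0.58 ± 0.13). Their summed level overlapped between WT and FAD, at 4724 to 5878 CPM in hippocampus of WT PBS and 5122 to 6457 in FAD IgG.

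To ask whether targeting CD38 changed these genes in FAD mice, FAD CD38 was compared with FAD IgG. No member was called in cortex, in hippocampus or over the mean of both regions, and neither was any other gene: 0% of the 12968, 12728 and 13447 genes passed (195, 197 and 208 genes had an unadjusted p under 0.05). The intervals bound what was missed. Gfap was 0.846 times its FAD IgG level in cortex (95% confidence interval 0.663 to 1.08) and 0.866 times in hippocampus (0.713 to 1.05). Over the mean of both regions the ratio for Gfap was 0.856 (0.720 to 1.02), so a level of Gfap under 0.720 times that of FAD IgG lies outside the interval.

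Timp1 and Vim had the lowest estimates. Over the mean of both regions Timp1 differed by -0.57 on the log2 scale, a ratio of 0.672 (95% confidence interval 0.483 to 0.935, unadjusted p = 0.0194, adjusted p = 0.999985, limma), and Vim by -0.27, a ratio of 0.827 (0.687 to 0.996, unadjusted p = 0.0454, adjusted p = 0.999985, limma). Neither passed the adjustment. The Timp1 estimate was -0.30 (unadjusted p = 0.138, limma) without the hippocampus of FAD IgG replicate 5, and -0.20 without pool 10, which holds that mouse. At the other end it was -0.77 with quality weights (unadjusted p = 0.00229, adjusted p = 0.998828, limma) and -0.76 without pool 7. That of Vim was -0.20 (unadjusted p = 0.140, limma) without the 3 wells of high choroid plexus markers, -0.16 without pool 9 and -0.41 without pool 6. The ratios of the remaining 6 members over both regions ran from 0.858 for Aspg to 1.296 for Lcn2, whose interval of 0.773 to 2.17 was the widest. Of the 9 members tested there, 7 had estimates below 0 and 2, Osmr and Lcn2, above. Within the 6 pools that held both FAD groups, the hippocampal difference of Vim was below 0 in every pool (-1.09 to -0.08). That of Timp1 was above 0 in 1 (-2.90 to 0.37), while in cortex Vim was above 0 in 1 pool and Timp1 in 2. Both genes were picked for their low estimates and the pools hold the same wells, so these signs add no support.

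**Figure D3:**
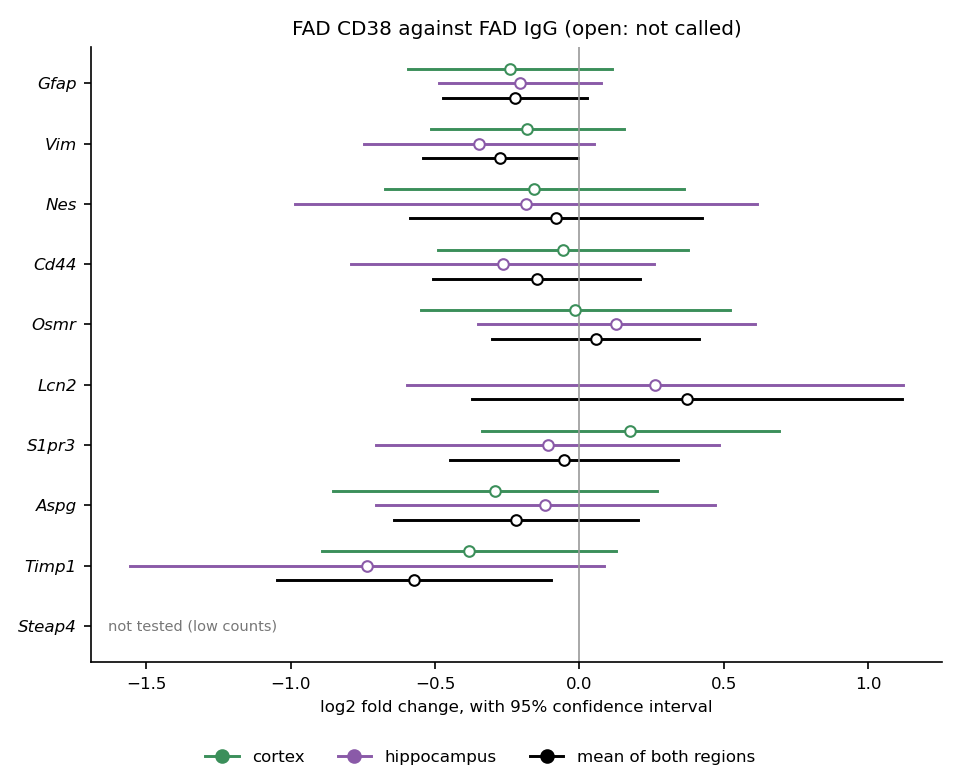
Log2 fold change of FAD CD38 against FAD IgG for each gene (points) with its 95% confidence interval (lines), in cortex, in hippocampus and over the mean of both regions. All points are open, as none was called; the interval of Timp1 over both regions lies wholly below 0, from -1.05 to -0.10.

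Whether the difference between the CD38 and IgG groups depended on the region was tested too, and 0% of 13447 genes, and so no member, was called (257 genes had an unadjusted p under 0.05, limma). Estimates for members ran from -0.32 for Timp1 (95% confidence interval -1.04 to 0.40) to 0.16 for Aspg (-0.47 to 0.80). The interval of Lcn2, -1.17 to 1.15, was the widest, so differences of that size between regions were not detectable here.

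The regions themselves differed before any disease. Within WT PBS mice, with each mouse as its own block, Gfap was 2.42 times as high in hippocampus as in cortex (1.28 ± 0.13, adjusted p = 1.26e-10, edgeR) and Cd44 1.66 times (0.73 ± 0.26, adjusted p = 0.0297). Aspg and Timp1 were lower in hippocampus, at 0.256 times (-1.97 ± 0.47, adjusted p = 0.00132) and 0.350 times (-1.51 ± 0.44, adjusted p = 0.00790). These 2 higher and 2 lower members stand beside 14.7% and 13.2% of 13425 genes in the same directions. The call of Cd44 was lost without pool 6, 8, 9 or 11 (adjusted p = 0.0520 to 0.204), and that of Timp1 when the pool took the place of the mouse as a factor (adjusted p = 0.0546).

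In FAD IgG 7 members were higher in hippocampus than in cortex of the same mice (9.29% of genes were) and 1, Nes, was lower (10.5% were). In FAD CD38 5 were higher (10.6% of genes) and Nes was again lower (11.4%). Lcn2 had the largest difference, at 1.98 ± 0.39 in FAD IgG (adjusted p = 2.34e-04) and 1.88 ± 0.38 in FAD CD38 (adjusted p = 3.20e-04). Gfap was higher in hippocampus by 0.76 ± 0.12 and 0.70 ± 0.12. Nes was lower there by -0.74 ± 0.27 (adjusted p = 0.0450) and -0.84 ± 0.29 (adjusted p = 0.0344). For Timp1 the difference was 0.76 ± 0.21 in FAD IgG (adjusted p = 0.00610), and 0.37 ± 0.24 in FAD CD38 (adjusted p = 0.289).

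Whether the FAD IgG effect itself differed between regions was tested across all genes with limma, keeping both regions of a mouse as a correlated block. Over 13447 genes 0.0892% (12 genes) were called and no member was. Timp1 came nearest, with an effect larger in hippocampus by 2.17 ± 0.52 (unadjusted p = 1.56e-04, adjusted p = 0.0854). It was called with sample quality weights (adjusted p = 0.0289) and with edgeR and the mouse as a fixed block (0.0268), and over all alternatives its adjusted p ran from 0.0268 to 0.596. S1pr3, at 1.13 ± 0.32 (adjusted p = 0.270), was called with quality weights (0.0305). Aspg had 1.75 ± 0.52 and Lcn2 1.59 ± 0.73. Gfap and Nes pointed the other way, at -0.54 ± 0.19 (adjusted p = 0.474) and -0.95 ± 0.36 (adjusted p = 0.523). So a member called in 1 region and not in the other, as S1pr3 and Nes were, was not shown to differ between them in the fit used here.

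**Figure D4:**
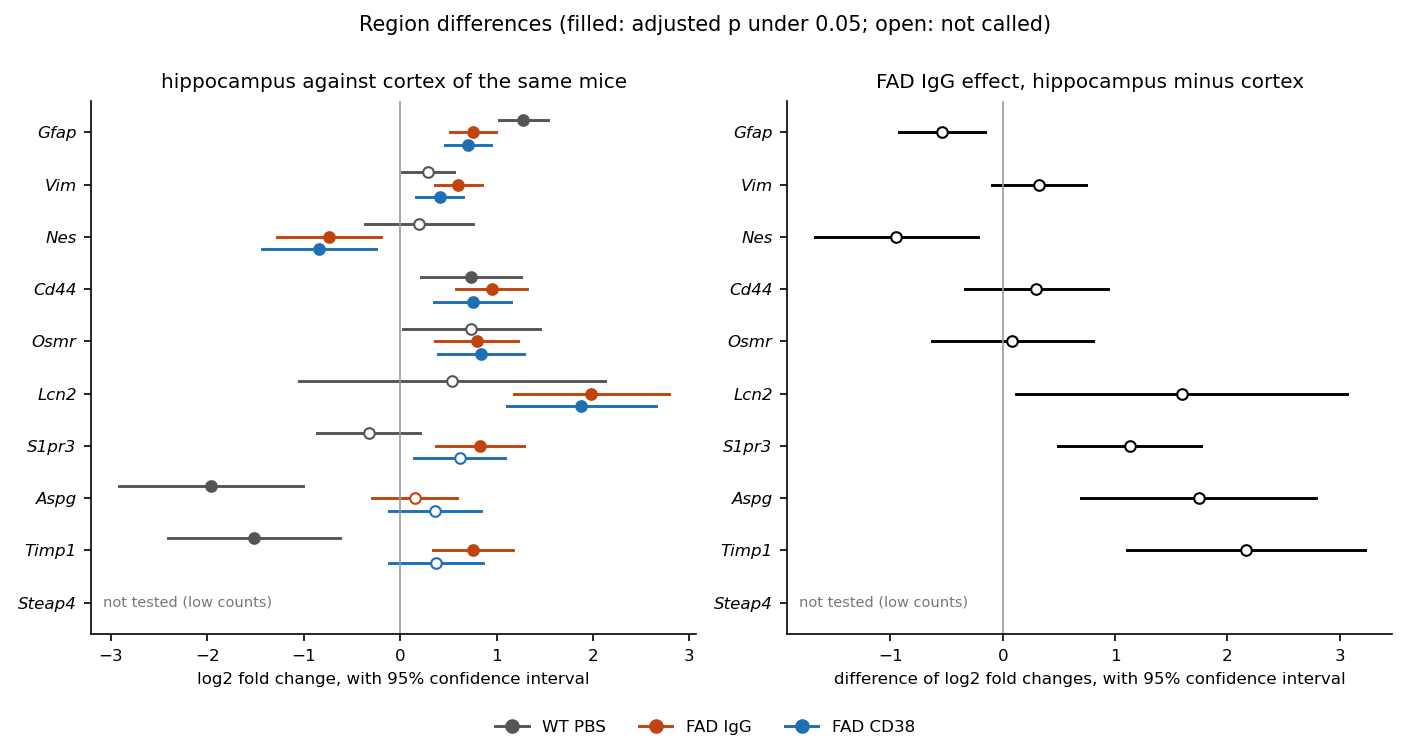
Left, log2 fold change of hippocampus against cortex of the same mice in each group; right, the difference of the FAD IgG effect between hippocampus and cortex; points with 95% confidence intervals, filled where the adjusted p is under 0.05. In WT PBS Aspg (-1.97) and Timp1 (-1.51) lie left of 0 and Gfap (1.28) right of it, and on the right no point is filled, with Timp1 farthest from 0 at 2.17.

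Whether the level of a member in cortex went with its level in hippocampus of the same mouse was examined among FAD mice. Over the 14 FAD mice with both regions, after taking out group means of log2 CPM, Vim in cortex went with Vim in hippocampus (Pearson's r = 0.685, permutation p = 0.00929, adjusted p = 0.0566 over 8 members; Spearman's rho = 0.723, permutation p = 0.00745, adjusted p = 0.0596). The r of Vim without the 2 mice farthest from the median was 0.591. For Timp1 r was 0.695 (permutation p = 0.0142, adjusted p = 0.0566; rho = 0.508, permutation p = 0.0740, adjusted p = 0.197) and 0.689 without the 2 farthest mice. None of the 8 members passed the adjustment. Gfap had an r of 0.518 (permutation p = 0.0525, adjusted p = 0.105; rho = 0.587, permutation p = 0.0346, adjusted p = 0.138) and 0.440 without the 2 farthest mice, Cd44 had 0.565, and Osmr, Aspg, S1pr3 and Nes had r between 0.0951 and 0.184. With the pool mean taken out as well, Gfap (0.759) and Timp1 (0.714) passed (adjusted p = 0.0166 for each, permutation test). Mice of a pool then have values that cancel each other, while the permutation test takes the 14 mice as independent. These adjusted p can therefore be too small, and no call is drawn from them.

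Within a region, Gfap was set against each other member over the same 14 mice, in 15 relations. In hippocampus Gfap went with Vim (r = 0.699, permutation p = 0.00333, adjusted p = 0.0479; rho = 0.749, permutation p = 0.00399, adjusted p = 0.0598; 0.646 without the 2 farthest mice). In cortex it went with Osmr (r = 0.721, permutation p = 0.00639, adjusted p = 0.0479; rho = 0.622, permutation p = 0.0265, adjusted p = 0.136), and r was 0.398 without the 2 farthest mice. The other 13 had adjusted p of 0.114 or more. For Aspg in hippocampus r with Gfap was 0.603 (permutation p = 0.0227, adjusted p = 0.114; rho = 0.459, permutation p = 0.111, adjusted p = 0.416), and 0.327 without the 2 farthest mice. The r of Gfap with Osmr in hippocampus was -0.556 (permutation p = 0.120, adjusted p = 0.359; rho = -0.200, permutation p = 0.517, adjusted p = 1) and -0.232 without the 2 farthest mice. With the pool mean taken out as well this r was -0.948 (adjusted p = 4.50e-04, permutation test), while those of Gfap with Vim in hippocampus (0.569) and with Osmr in cortex (0.686, and 0.704 without the 2 farthest mice) no longer passed. Here too the values of mice of a pool cancel each other, so no call is drawn from the p-values of this setting.

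A single mouse stood out on several members. FAD IgG replicate 5 (pool 10) had the highest Timp1, Gfap, Vim, Cd44 and S1pr3 of its group in hippocampus, at 40.1, 627, 228, 27.1 and 15.9 CPM against medians of 6.54, 441, 144, 11.4 and 9.09 in the other 6 mice. Its Lcn2, 3.02 CPM, was the lowest of the group. In cortex the same mouse was highest for Gfap (408), Vim (131), Osmr (11.0), Timp1 (10.2), Nes (9.44) and Lcn2 (2.36), and lowest for Aspg (5.51). That cortex library was the smallest of all, with 1270918 counts, and had the highest shares of ribosomal RNA (12.6%) and mitochondrial counts (18.8%) of any cortex, against medians of 5.12% and 11.0%. The hippocampus library of this mouse had 5.61% and 9.10%, against hippocampal medians of 6.14% and 10.1%. The highest shares in hippocampus, 20.6% and 21.4%, were those of WT PBS replicate 9. The part of these shares in the levels was not tested.

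**Figure D5:**
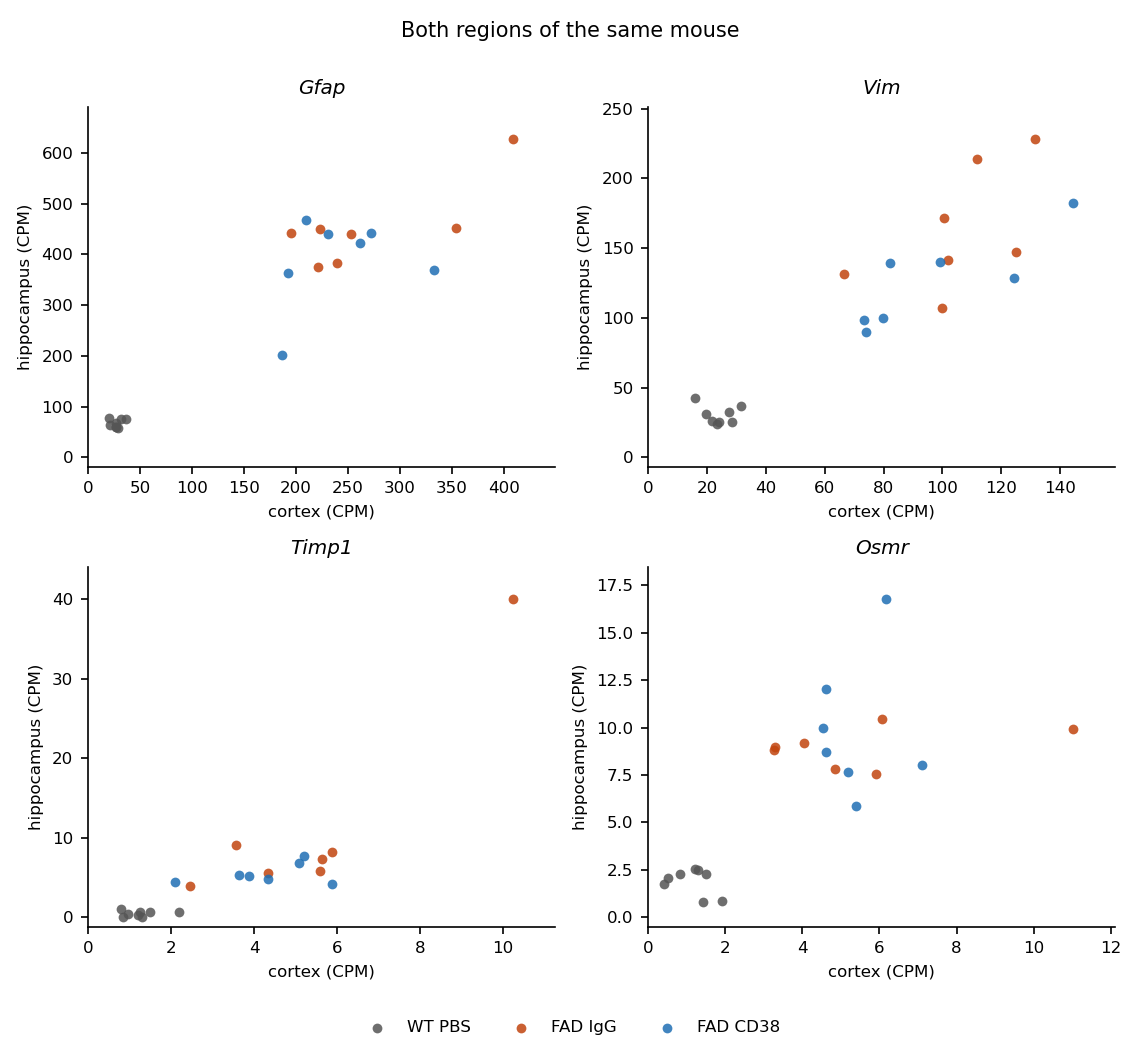
CPM in cortex (horizontal axis) against hippocampus (vertical axis) of the same mouse for Gfap, Vim, Timp1 and Osmr, linear axes; each point is 1 mouse, coloured by group. WT PBS mice sit in the lower left corner of each panel, and the point at 10.2 and 40.1 CPM in the Timp1 panel is FAD IgG replicate 5.

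The genes whose levels over the 6 group-by-region means were closest to those of Gfap, by the root mean square difference of centred log2 CPM among 12467 genes, were Serpina3n, a serine protease inhibitor of reactive astrocytes (0.15), the complement gene C4b (0.15), Gpnmb, a glycoprotein of lysosome-rich microglia (0.24), the galectin gene Lgals3 (0.32) and A2m, a protease trap (0.33). The profile of Gfap itself spanned 4.03 over these means. Reads of C4b and of its near-identical copy C4a may be exchanged in counting. For the other members the nearest genes were Samsn1 for Vim (0.17), Otud3 for Nes (0.11), Plce1 for Cd44 (0.14), Mamdc2 for Osmr (0.18), Gm42674 for S1pr3 (0.13), C3ar1 for Aspg (0.15) and Cybb for Timp1 (0.15). Vim, Aspg and Timp1 had among their 5 nearest genes ones known from microglia, such as Plek, Ctss, C3ar1 and Cybb. Cd44 had among its 5 nearest Aqp4 (0.20), one of the resting astrocyte genes. Profiles of group means do not tell which cells the transcripts came from, and this was not tested. With a prior count of 0.5 in place of 2, 2 of the 5 nearest of Vim, 1 of Aspg and 2 of Timp1 were the same.

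Other astrocyte signatures were read beside the members, on FAD IgG against WT PBS. Of all genes tested, 3.34% rose in cortex and 4.48% in hippocampus. Of the 13 genes of the common reactive signature, which holds 9 of the members, the other 3 tested included 2 that rose in each region. Serpina3n was one, from 2.89, 6.82 and 12.6 CPM in cortex of WT PBS to 43.9, 87.3 and 109 in FAD IgG (3.69 ± 0.25, adjusted p = 1.69e-09) and from 10.7, 21.5 and 23.2 to 65.1, 109.5 and 172 in hippocampus (2.40 ± 0.17, adjusted p = 9.24e-09). Its FAD IgG effect was smaller in hippocampus by the test of that difference (-1.22 ± 0.26, adjusted p = 0.0381, limma).

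Of the genes known as induced in astrocytes by inflammation (A1), 7 of 10 tested rose in cortex and 9 of 12 in hippocampus, with medians of 0.89 and 1.78. Beside this list and those below, 3.34% and 4.48% of all genes tested rose, with medians of 0.01 and 0.003. The part of microglia, whose markers rose in the same comparisons, was not tested. In cortex Psmb8, an immunoproteasome subunit (1.61 ± 0.18), H2-D1, an MHC class I chain (1.55 ± 0.17), and Ggta1, a galactosyltransferase (1.13 ± 0.25), led. In hippocampus C3, the central complement component, rose by 3.22 ± 0.37 and Ggta1 by 2.28 ± 0.24. Of these, Srgn and H2-T23 had a larger FAD IgG effect in hippocampus, by 1.04 ± 0.22 (adjusted p = 0.0381) and 0.83 ± 0.17 (adjusted p = 0.0276, limma). Of the genes known as induced by ischaemia (A2), 2 of 6 tested rose in each region, Cd14, a co-receptor that microglia also carry (2.41 ± 0.24 and 2.47 ± 0.30), and Stat3 (0.90 ± 0.14 and 1.05 ± 0.17). Of the disease-associated astrocyte genes, 13 of 16 rose in each region, 3 of them members (Gfap, Vim and Osmr), with C4b at 3.43 ± 0.22 and 2.84 ± 0.21.

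Some partners of the members in their pathways were called. Of all genes tested, 3.34% rose in cortex of FAD IgG and 4.48% in hippocampus. Of 14 gp130 and STAT3 genes tested, 4 rose in cortex of FAD IgG and 5 in hippocampus, medians 0.40 and 0.44, Osmr included. Among the others were Ptpn6, a phosphatase of blood-derived and microglial cells (2.38 ± 0.26 and 2.38 ± 0.24), Il6ra, the interleukin-6 receptor gene (1.18 ± 0.22 and 0.86 ± 0.22), and Stat3. Il6st, which encodes gp130 itself, differed by 0.40 (adjusted p = 0.279) and 0.66 (adjusted p = 0.191), and Lifr, the leukaemia inhibitory factor receptor, by 0.61 and 0.11, neither called; these and the ligand gene Lif were named after their values were seen. Lif stayed at or below 1.42 CPM in every cortex and 2.80 CPM in every hippocampus of the 3 groups.

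Among the 9 other hyaluronan and CD44 genes tested, Spp1, a secreted ligand of CD44 (2.34 ± 0.35 in cortex and 3.37 ± 0.35 in hippocampus), and Msn, which links CD44 to actin (1.15 ± 0.16 and 1.60 ± 0.14), rose in both regions, and the proteoglycan gene Bcan was lower in cortex (-0.48 ± 0.13). Of the other sphingosine 1-phosphate genes, 0 of 10 were called in cortex, and in hippocampus 1 of 8 rose, Sgpl1, the lyase that degrades the lipid (1.13 ± 0.21). Of the other metalloproteinase genes, Timp2, a second inhibitor (0.81 ± 0.11 and 0.81 ± 0.15), and Cd63, a surface receptor of TIMP1 (0.92 ± 0.15 and 1.24 ± 0.18), rose in both regions, and Mmp17, a membrane-bound protease, was lower in cortex (-0.42 ± 0.11). Iron and copper genes besides Lcn2 and Steap4 rose in 1 of 13 cases in cortex, the metal transporter gene Slc39a14 (1.29 ± 0.30). In hippocampus 2 of 13 rose, Trf, the iron carrier (0.76 ± 0.21), and the ferritin gene Ftl1 (0.69 ± 0.17). Beside the 3.34% of all genes that rose in cortex and 4.48% in hippocampus, such small counts are no result about their lists. None of the 7 other filament and linker genes tested was called in either region of FAD IgG mice. In cortex of FAD CD38 mice, where 3.3% of all genes were higher, 1 of the 7 was, the neurofilament gene Nefm (0.74 ± 0.16, adjusted p = 0.00743, edgeR).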

How the data were processed

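The authors deposited counts per gene and well for 47 wells of 24 mice in 7 library pools, made by a 3′ tag assay (mcSCRB-seq) with bcl2fastq 2.17 and STAR 2.5.3a per the submitters' processing notes. The genome build, the counting tool and the collapse of molecular identifiers are not stated in the labels or notes. The 2 wells of 1 mouse whose labels conflict on the injection were left out, leaving 45.

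Regions were fitted separately with edgeR 4.0.16 (R 4.3.3; quasi-likelihood test, TMM factors, 3 groups in 1 fit, pool as a factor, filterByExpr with a minimum count of 10 and total of 15). Both regions together were fitted with limma 3.58.1 (voom, mouse as a correlated block), and regions within mice with edgeR, each mouse being a block. P-values were adjusted by Benjamini-Hochberg over all genes tested, and 0.05 was the threshold. Correlations used log2 CPM (prior count 2) and 100000 permutations. Alternatives included DESeq2 1.42.0, other filters and leaving out each pool. The fits across genes were run on simulated counts with known changes. Those counts held no pool effect and no correlation between regions of a mouse, so they could not check the pool factor or the mouse block.

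The members and gene lists were chosen with earlier results of these data known. Named genes were all members, up to 4 called genes of largest change per list, and the nearest profiles.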

Additional observations from a re-analysis of the deposited data

Results flagged for a closer look

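In 12 of 60 groups of a gene, region and injection, 1 sample lay farther from the others than Dixon's criterion at 95% allows. Chance gives about 1 in 20 for independent, normally distributed values. Here CPM of low counts were used and several flagged values share a well, so the 12 are no measure of an excess. In hippocampus of FAD IgG replicate 5 these were Timp1 at 40.1 CPM (next 9.04), Gfap at 627 CPM (next 451) and S1pr3 at 15.9 CPM (next 10.2), and in cortex of the same mouse Osmr at 11.0 CPM (next 6.08). In hippocampus of FAD CD38 replicate 4, the well with the most choroid plexus transcripts, Gfap was low at 202 CPM (next 363), and S1pr3 at 17.5 CPM (next 10.6) and Steap4 at 3.50 CPM (5 counts) were high. The part of choroid plexus tissue in these values was not tested.

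The others were single values. Lcn2 stood at 8.44 CPM in hippocampus of FAD IgG replicate 4 and at 2.02 CPM (9 counts) in hippocampus of WT PBS replicate 3. Timp1 stood at 2.18 CPM in cortex of WT PBS replicate 3, and Aspg at 9.68 CPM in cortex of FAD IgG replicate 2. The 0.413 CPM of Steap4 in hippocampus of WT PBS replicate 5 was 1 count.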

How the results depend on the processing

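The number of members higher than in WT PBS ran from 6 to 8 in cortex (7 as reported) and from 7 to 8 in hippocampus (8 as reported) for each FAD group, over all alternatives run. Between regions of WT PBS mice 3 to 4 members were called (4 as reported). FAD CD38 against FAD IgG gave 0 members under every alternative, in each region and over both. Region dependence of the FAD IgG effect, 0 members as reported, gave 2 with voom quality weights (Timp1 and S1pr3) and 1 with edgeR and the mouse as a fixed block (Timp1). With the pool mean taken out, 2 members correlated between regions in place of 0, and 1 relation with Gfap passed in place of 2. These counts rest on permutation p-values that take mice of a pool as independent although their values then cancel each other. The cause of the change was not tested. No called value of a member against WT PBS, or between regions of WT PBS mice, reversed its direction under the alternatives run. How far the differences between regions within FAD IgG and FAD CD38 mice depend on the processing is not reported here. Leaving out the choroid-rich wells, FAD IgG replicate 5 in hippocampus, or changing the filter for both regions together was chosen after seeing the data and changed no count of members. No paired analysis by replicate number was possible because the labels give the groups no shared numbers; the pool, which groups share, was a factor in the fits. Depth limits Steap4 in both regions and Lcn2 in cortex, which had too few counts for the test.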

Other observations

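The mouse whose labels conflict on the injection entered no comparison. Its cortex had 249.5 CPM of Gfap, 89.8 of Vim, 4.67 of Nes, 4.23 of Cd44, 4.003 of Osmr, 4.67 of S1pr3, 8.45 of Aspg, 3.78 of Timp1, 0.667 of Lcn2 and no count of Steap4. Its hippocampus had 353 CPM of Gfap, 108 of Vim, 1.73 of Nes, 17.3 of Cd44, 7.48 of Osmr, 9.20 of S1pr3, 5.75 of Aspg, 7.48 of Timp1, 3.45 of Lcn2 and no count of Steap4.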
